A study of Solanum lycopersicum with 8 samples.

Results

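The genes described here, in tomato fruit peel, are LOC544276, whose listed synonym ICL is the usual abbreviation of isocitrate lyase, and chMDH, a chloroplast malate dehydrogenase. They are 2 of the 10209 probe sets of the array, controls included, and 2 of the 909 that carry a gene symbol. Each is read by 1 probe set. Both were selected on earlier results from the same 8 arrays, in which they moved in opposite directions in the atv mutant and the double mutant. Their genotype differences are therefore given as descriptions, with no test.

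Peel was taken from mature green fruit, and each of the 4 genotypes had 2 arrays labelled as biological replicates. The Aft mutant carries the Anthocyanin fruit allele and made limited pigment in spots. The atv mutant carries the atroviolacea allele and made no fruit anthocyanin. The double mutant carries both alleles and was strongly pigmented, and the wild type, cultivar Ailsa Craig, was unpigmented. All plants shared a winter greenhouse with a minimum of 12 °C. The labels name no cultivar for the mutant samples, so an allele and the rest of its line cannot be told apart. No source used here ties the 2 replicates of a genotype to separate plants, so p-values measure the spread between arrays, which may be technical.

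Isocitrate lyase splits isocitrate into succinate and glyoxylate. It is the entry step of the glyoxylate cycle, a bypass of the carbon-releasing steps of the citrate cycle, known best from seedlings that turn stored fat into sugar and also from senescing tissue. Malate dehydrogenases interconvert malate and oxaloacetate in several compartments of the plant cell. The chloroplast form lets malate carry reducing power out of the plastid. Malate is also one of the main acids of tomato fruit, and the glyoxylate cycle has a malate dehydrogenase of its own in the peroxisome.

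LOC544276 stood at 10.03 and 9.92 on the log2 intensity scale in the Aft mutant, 7.05 and 7.78 in the atv mutant, 11.32 and 11.36 in the double mutant, and 10.46 and 10.56 in wild type. These are deposited intensities after quantile normalization across the 8 arrays, so that a step of 1 is a doubling. The double mutant was highest and the atv mutant lowest. On this scale the atv replicates were farther apart than those of any other genotype. Before normalization the atv replicates read 175.9 and 225.7, and the Aft replicates 883.3 and 1132.8.

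On the deposited scale, before that normalization, LOC544276 averaged 1008 ± 176.4 in the Aft mutant, 200.8 ± 35.21 in the atv mutant, 2380 ± 277 in the double mutant and 1519 ± 13.93 in wild type (intensity units, SD, n = 2 each). The order of the genotypes was the same on both scales. These means came to 66.4% of wild type in the Aft mutant, 13.2% in the atv mutant and 157% in the double mutant.

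chMDH stood at 7.21 and 7.03 in the Aft mutant, 11.18 and 11.46 in the atv mutant, 6.75 and 6.58 in the double mutant, and 8.27 and 8.13 in wild type (log2 normalized intensity). Here the atv mutant was highest and the double mutant lowest. Deposited intensities averaged 129.8 ± 31.47 in the Aft mutant, 2606 ± 130.9 in the atv mutant, 89.35 ± 16.19 in the double mutant and 301 ± 32.31 in wild type (SD, n = 2 each). They came to 43.1% of wild type in the Aft mutant, 866% in the atv mutant and 29.7% in the double mutant. The Aft and double mutants were the closest neighbours in this order.

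**Figure D1:**
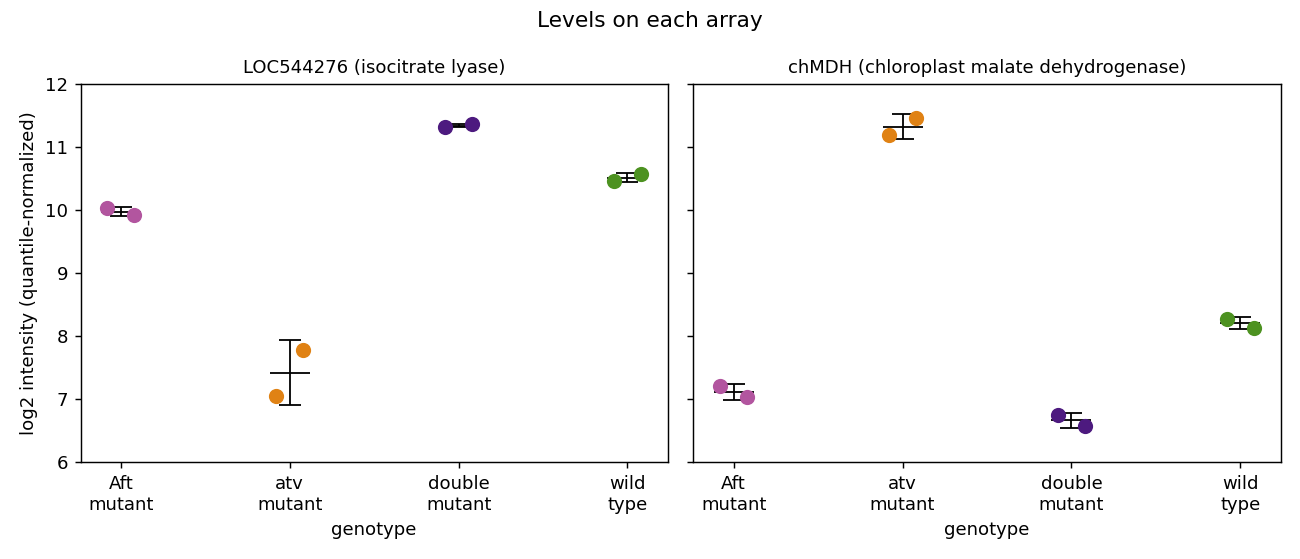
Log2 normalized intensity of LOC544276 and chMDH on each of the 8 arrays, by genotype, from the Aft, atv and double mutants to wild type. LOC544276 was lowest in the atv mutant, at 7.05 and 7.78, where chMDH was highest, at 11.18 and 11.46.

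The atv mutant had the largest departure from wild type for both genes, in opposite directions. LOC544276 differed by -3.09 (SE 0.23, log2), which is 8.53-fold lower, and chMDH by 3.12 (SE 0.14), which is 8.68-fold higher. SEs here and below come from limma, with a spread shared by all genotypes. For LOC544276 the SD was 0.52 in the atv mutant and 0.03 to 0.08 in the other genotypes. Its SE thus does not show the wider spread of the atv arrays. By size the differences from wild type ranked 232 and 230 among the 9493 probe sets that passed the filter on low values. In this comparison limma called 40.3% of probe sets at an adjusted p under 0.05, 18.8% higher and 21.5% lower. Because the genes were chosen on these differences, nothing is read from their ranks.

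Against the atv mutant, the double mutant had LOC544276 at a difference of 3.92 (SE 0.23), 15.1-fold higher, and chMDH at -4.66 (SE 0.14), 25.2-fold lower. Their ranks by size were 166 and 96 of 9493. Background calls were 44% of probe sets, with 24.7% higher and 19.3% lower in the double mutant.

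In the double mutant against wild type, LOC544276 was 1.77-fold higher, a difference of 0.82, and chMDH was 2.90-fold lower, a difference of -1.54. The ranks were 1604 and 516, and 13.1% of probe sets were called, 7.39% higher and 5.73% lower. Both genes thus lay on the other side of wild type from where they lay in the atv mutant.

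The Aft mutant was lower than wild type for both genes, by a difference of -0.54 for LOC544276, or 1.45-fold, and -1.09 for chMDH, or 2.12-fold. Aft is the mutant in which they did not move apart. Of all probe sets, 5.58% were called here, 2.78% higher and 2.8% lower. In the double mutant against the Aft mutant, LOC544276 differed by 1.36, 2.57-fold higher, and chMDH by -0.45, 1.37-fold lower, where 4.1% of probe sets were called, 2.52% higher and 1.58% lower.

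**Figure D2:**
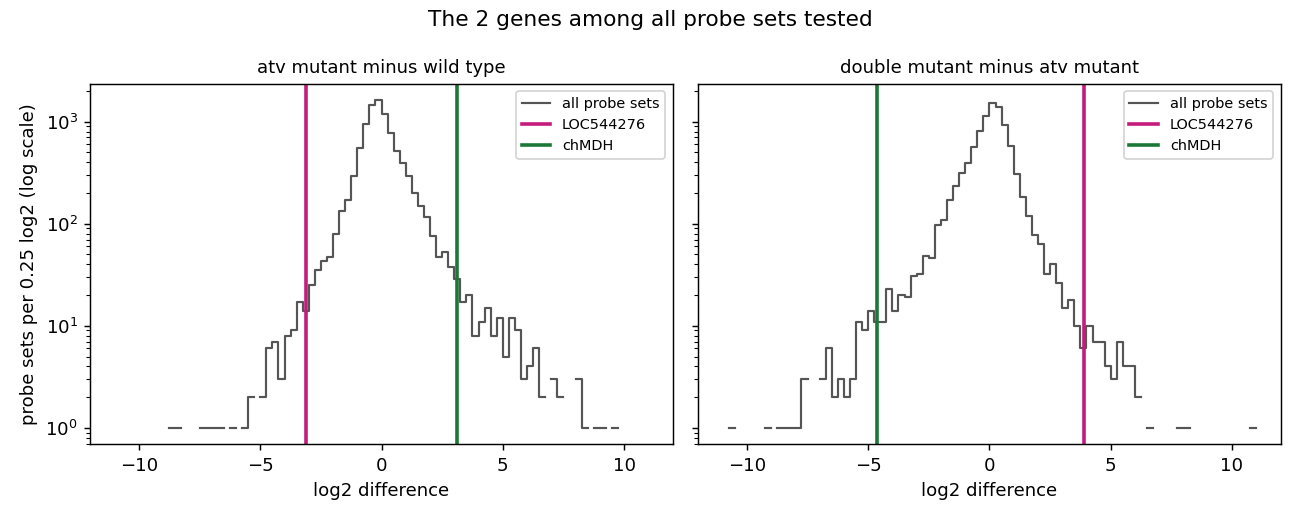
Distribution of log2 differences over the 9493 probe sets tested, for the atv mutant against wild type (left) and the double mutant against the atv mutant (right), with probe sets per bin on a log axis. Vertical lines mark LOC544276 at -3.09 and 3.92 and chMDH at 3.12 and -4.66.

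The effect of atv can also be taken with and without Aft, as the double mutant minus the Aft mutant, less the atv mutant minus wild type. This difference of effects was 4.46 (SE 0.33) for LOC544276 and -3.57 (SE 0.20) for chMDH. For LOC544276 the atv allele went with 1.36 more in the Aft line and with -3.09 in the line without Aft. For chMDH the corresponding differences were -0.45 and 3.12. Over all probe sets limma called this difference of effects for 24.2%, 12.5% higher and 11.7% lower.

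The split of calls into higher and lower depended on the scale. Of the called probe sets, 46.7% were higher in the atv mutant than in wild type, against 60.9% as deposited. The share higher in the double mutant was 56.3% against wild type (39.6% as deposited) and 56.2% against the atv mutant (31% as deposited). For the difference of effects it was 51.7%, and 31.1% as deposited. Both genes kept the direction of every difference given above on both scales.

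The other malate dehydrogenases did not all follow chMDH. gMDH, the glyoxysomal enzyme that acts beside isocitrate lyase in the glyoxylate cycle, stood at 11.08 and 10.86 in the Aft mutant, 12.61 and 12.84 in the atv mutant, 11.31 and 11.37 in the double mutant, and 10.87 and 11.06 in wild type (log2 normalized intensity). It rose in the atv mutant by 1.76, 3.39-fold, against wild type (limma, adjusted p = 0.00042), and was lower in the double mutant than in the atv mutant by a difference of -1.39 (adjusted p = 0.00088). Thus the peroxisomal malate dehydrogenase was high in the atv mutant, where LOC544276 was low. In the double mutant it differed from wild type by 0.38 (limma, adjusted p = 0.13), and in the Aft mutant by 0.01 (adjusted p = 0.99).

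The probe set named mdh, for which the tables name no compartment, stood at 12.41 and 12.60 in the Aft mutant, 13.63 and 13.46 in the atv mutant, 12.67 and 12.69 in the double mutant, and 13.06 and 13.01 in wild type. Its order of genotypes put the atv mutant above wild type and the Aft and double mutants below it, as for chMDH, with smaller differences. It rose by 0.51 in the atv mutant (limma, adjusted p = 0.015), a call lost on the deposited scale and without either wild-type array. In the double mutant it was lower than in the atv mutant by a difference of -0.87 (limma, adjusted p = 0.0022).

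The cytosolic cMDH was dim, at 3.99 and 3.33 in the Aft mutant, 5.88 and 7.09 in the atv mutant, 4.02 and 6.0 in the double mutant, and 3.71 and 4.50 in wild type. Its difference of 2.38 in the atv mutant did not pass (limma, adjusted p = 0.05), and the double mutant's arrays were far apart. With intensities under 16 set to 16 it was at least 4.71-fold higher in the atv mutant than in wild type and passed (limma, adjusted p = 0.038). The mitochondrial mMDH1 ranged from 12.61 to 12.93 over the 8 arrays on its brighter probe set and from 12.31 to 12.74 on the other. None of its differences passed on either of its 2 probe sets, and in the atv mutant the brighter one differed from wild type by 0.06 (limma, adjusted p = 0.70).

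**Figure D3:**
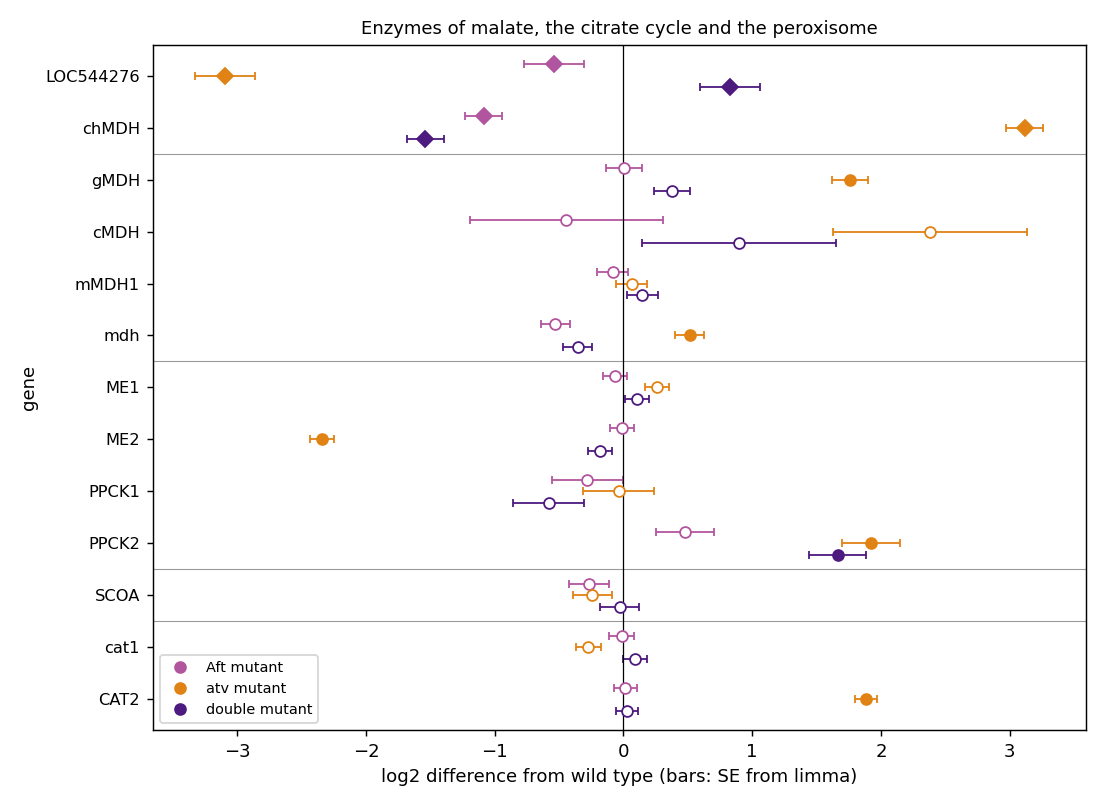
Log2 difference from wild type (±SE of the fit) in the Aft, atv and double mutants for the genes of the glyoxylate and malate lists. Filled circles passed limma's adjusted p of 0.05, open circles did not, and diamonds are LOC544276 and chMDH, which were not tested; CAT2 and gMDH rose and ME2 fell in the atv mutant.

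Malic enzyme, which turns malate into pyruvate, was represented by ME1 and ME2. ME2 stood at 13.45 and 13.49 in the Aft mutant, 11.08 and 11.20 in the atv mutant, 13.34 and 13.25 in the double mutant, and 13.47 and 13.49 in wild type. It fell by 2.34 on the log2 scale in the atv mutant, 5.07-fold (limma, adjusted p = 6.1e-05), and was higher in the double mutant than in the atv mutant by 2.16 (adjusted p = 6.2e-05). The 6 other arrays lay between 13.25 and 13.49. ME1 differed by 0.26 in the atv mutant and did not pass (limma, adjusted p = 0.075).

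PPCK2, a kinase of the phosphoenolpyruvate carboxylase that supplies oxaloacetate, rose by 1.92 in the atv mutant (limma, adjusted p = 0.0017) and by 1.66 in the double mutant (adjusted p = 0.0089) against wild type. Its arrays read 6.62 and 6.59 in the Aft mutant, 7.75 and 8.36 in the atv mutant, 7.74 and 7.85 in the double mutant, and 5.96 and 6.30 in wild type. Both lines with atv were high, unlike the pattern of chMDH. The call in the double mutant was lost without wild-type replicate 1 and without double mutant replicate 2. PPCK2 was also higher in the double than in the Aft mutant, by 1.19 (limma, adjusted p = 0.049), a call lost in 8 of 14 other settings. PPCK1 and the succinyl-CoA ligase gene SCOA did not pass in any comparison.

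Of the 9 tested genes of citrate and malate metabolism besides chMDH, none passed in the Aft mutant against wild type in limma. There 1 had an unadjusted p under 0.05, and 5.58% of all probe sets were called. In the atv mutant gMDH, mdh and PPCK2 rose, ME2 fell and 5 did not pass. These 4 of 9 lay near the 40.3% called over all probe sets, and the median difference was 0.26, against -0.11 over all probe sets. In the double mutant against wild type PPCK2 rose and 8 did not pass, where 13.1% of all probe sets were called, with a median of 0.10 against 0.04 over all probe sets. Between the double and atv mutants ME2 was higher, gMDH and mdh were lower and 6 did not pass, where 44% of all probe sets were called, with a median of -0.26 against 0.10.

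Catalases break down the hydrogen peroxide made by peroxisomal oxidation, and cat1 and CAT2 were the 2 tested genes of the glyoxylate list besides LOC544276. CAT2 stood at 11.56 and 11.55 in the Aft mutant, 13.44 and 13.41 in the atv mutant, 11.56 and 11.57 in the double mutant, and 11.59 and 11.49 in wild type. It rose in the atv mutant by 1.88, 3.69-fold (limma, adjusted p = 7.9e-05), and was lower in the double mutant than in the atv mutant by a difference of -1.86 (adjusted p = 7.5e-05). The atv mutant stood apart, as for chMDH, and the other 3 genotypes lay between 11.49 and 11.59. In the atv mutant cat1 differed by -0.27 and did not pass (limma, adjusted p = 0.068), but it was higher in the double mutant than in the atv mutant by 0.36 (adjusted p = 0.027), a call lost in 7 of 13 other settings. Neither gene passed in the Aft or the double mutant against wild type, nor had an unadjusted p under 0.05 there. Over all probe sets 5.58% and 13.1% were called in these comparisons.

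Genes of glutamate and GABA metabolism, which draw on the same organic acids, numbered 6. GS2, the chloroplast glutamine synthetase, stood at 10.84 and 10.86 in the Aft mutant, 13.16 and 13.11 in the atv mutant, 11.08 and 11.05 in the double mutant, and 11.13 and 11.19 in wild type. It rose by 1.98 in the atv mutant (limma, adjusted p = 6.7e-05). GABA-TP2, a GABA transaminase, rose by 1.87 there (limma, adjusted p = 0.00024). GABA-TP3, another transaminase, rose by 0.67 (limma, adjusted p = 0.011), a call lost on the deposited scale and without wild-type replicate 1.

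The glutamate dehydrogenase gene gdh1 stood at 10.01 and 9.65 in the Aft mutant, 7.80 and 8.02 in the atv mutant, 10.15 and 10.25 in the double mutant, and 8.79 and 8.83 in wild type. Its genotypes ran as for LOC544276, except that the Aft mutant lay above wild type. It fell by 0.90 in the atv mutant (limma, adjusted p = 0.0061) and rose by 1.39 in the double mutant (adjusted p = 0.0049) and by 1.02 in the Aft mutant (adjusted p = 0.018). The Aft call was lost without either wild-type array and without Aft replicate 1.

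The glutamine synthetase gts1 was lower than wild type in every mutant. It passed in the Aft mutant (limma, adjusted p = 0.0019), in the double mutant (adjusted p = 0.00072) and, by a difference of -1.54, in the atv mutant (adjusted p = 0.0068). With intensities under 16 set to 16, gts1 was at least 7.84-fold lower in the Aft mutant (limma, adjusted p = 5.5e-05) and in the double mutant (adjusted p = 3.4e-05). Its second probe set did not pass in these comparisons, but with the floor of 16 it was lower in the atv mutant (limma, adjusted p = 0.018) and in the double mutant (adjusted p = 0.023). In all, 1 gene rose and 1 fell in the Aft mutant, 3 rose and 2 fell in the atv mutant, and 1 rose and 1 fell in the double mutant, of 6 each. Over all probe sets 5.58%, 40.3% and 13.1% were called in those comparisons, in the same order.

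Chloroplast genes were read beside chMDH because its product works in that compartment. This list, like the others, was chosen with earlier results of these data known, so its counts only describe these arrays. Of 6 genes of light harvesting, electron transport and chlorophyll synthesis, 5 rose in the atv mutant and 1, PSBO, did not pass, where 18.8% of all probe sets were called higher. Their median was 0.74, against -0.11 over all probe sets. CAB5, a chlorophyll-binding protein, had the widest range of the 6, at 10.65 and 10.30 in the Aft mutant, 13.93 and 13.72 in the atv mutant, 10.86 and 10.70 in the double mutant, and 11.25 and 11.22 in wild type. It rose by 2.59 in the atv mutant (limma, adjusted p = 0.00016). POR2, a protochlorophyllide reductase, rose by 1.31 (limma, adjusted p = 0.00034), and CAB4 by 0.75 (adjusted p = 0.0021).

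All 6 chloroplast genes were lower in the double mutant than in the atv mutant, where 19.3% of all probe sets were called lower. Their median was -0.93, against 0.10 over all probe sets. The call of PSBO was lost in 7 of 13 other settings, and that of CAB6A with arrays scaled to 1 median. None of the 6 passed in the double mutant against wild type in limma, where 13.1% of all probe sets were called. Of the 6, 2 had an unadjusted p under 0.05 there. In the Aft mutant CAB5 was lower by a difference of -0.76 (limma, adjusted p = 0.049), a call lost in 12 of 14 other settings. The other 5 did not pass there, where 5.58% of all probe sets were called.

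Isocitrate lyase is known from senescing leaves, so 9 genes of senescence and nutrient recycling were listed too. ARG2, an arginase, stood at 10.56 and 10.49 in the Aft mutant, 11.42 and 11.39 in the atv mutant, 10.71 and 10.69 in the double mutant, and 9.35 and 9.27 in wild type. It rose in all 3 mutants, by 1.22 in the Aft mutant (limma, adjusted p = 0.0016), 2.10 in the atv mutant (adjusted p = 6.3e-05) and 1.39 in the double mutant (adjusted p = 0.0008). Of its 2 further probe sets, 1 rose in all 3 mutants and the dimmer one did not pass in the Aft mutant (limma, adjusted p = 0.28). In the atv mutant the phospholipases D PLDa1 and PLDa2 fell by 0.72 (limma, adjusted p = 0.0059) and 0.96 (adjusted p = 0.01), and 6 genes did not pass. With ARG2, 3 of 9 were called there, no more than the 40.3% over all probe sets. RNALE, a ribonuclease, was dim on every array, at deposited intensities of 6.9 to 47. It rose by 1.30 in the double mutant against wild type (limma, adjusted p = 0.037). Besides ARG2 and RNALE the other 7 did not pass there, where 13.1% of all probe sets were called. The RNALE call was lost in 7 of 14 other settings, the replicate number as a block among them (limma, adjusted p = 0.051).

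**Figure D4:**
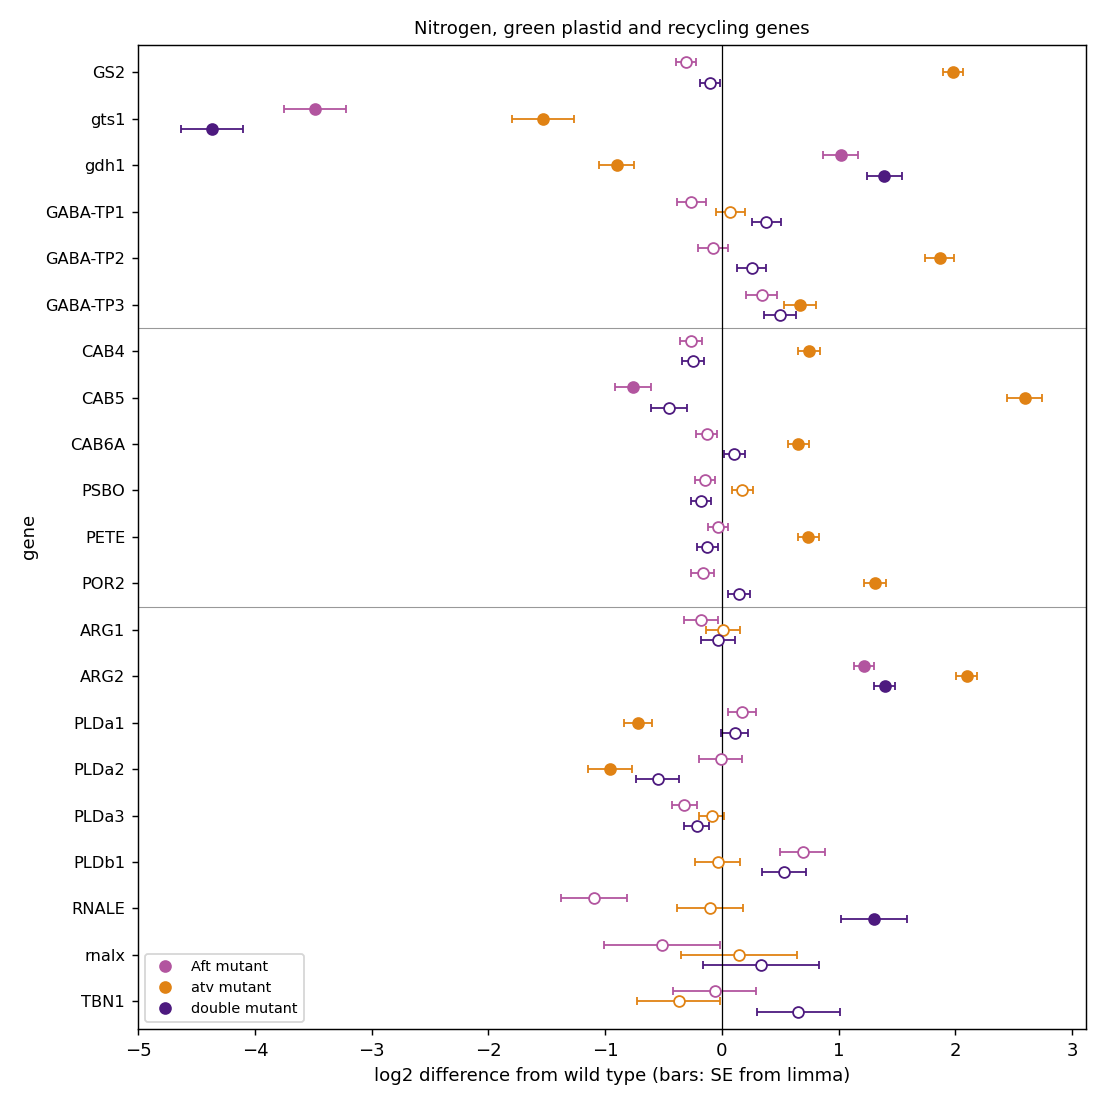
Log2 difference from wild type (±SE of the fit) in the Aft, atv and double mutants for the genes of nitrogen metabolism, the chloroplast and senescence. Filled circles passed limma's adjusted p of 0.05; GS2 at 1.98, CAB5 at 2.59 and ARG2 at 2.10 were high in the atv mutant.

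The named genes whose arrays ran most like each of the pair were taken from 692 named probe sets that passed the filter, by Pearson's r over the 8 arrays. These values describe the arrays, which share their genotypes, and they rest in part on the distance of the atv arrays, more for some genes than for others. For LOC544276 the nearest was ETR6, an ethylene receptor, with r = 0.999, and r = 0.995 over the 6 arrays without the atv mutant. ETR6 read 9.42 and 9.25 in the Aft mutant, 5.97 and 6.94 in the atv mutant, 10.96 and 11.15 in the double mutant, and 9.81 and 9.98 in wild type. The 4 next were ETR5, also an ethylene receptor (r = 0.986), the cyclin-dependent kinase CDKA1 (0.984), EIL4, of the EIN3-like transcription factors (0.981), and PTI4, of the ethylene response factors (0.98). Without the atv mutant their r was 0.901, 0.861, 0.829 and 0.977, in the same order. In the Aft mutant CDKA1 and EIL4 differed from wild type by 0.04 and 0.08, where LOC544276 was lower.

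For chMDH the nearest was ChrC, a carotenoid-associated protein of plastids, with r = 0.995, and 0.957 without the atv mutant. It read 11.78 and 11.58 in the Aft mutant, 13.02 and 13.11 in the atv mutant, 11.57 and 11.59 in the double mutant, and 11.98 in both wild-type arrays. The 4 next were CAB4 (0.989), the carotenoid cleavage dioxygenase CCD1B (0.986), the carotene hydroxylase CrtR-b1 (0.982) and the lycopene cyclase LCY1 (0.981). Without the atv mutant their r was 0.892, 0.889, 0.87 and 0.95, in the same order.

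**Figure D5:**
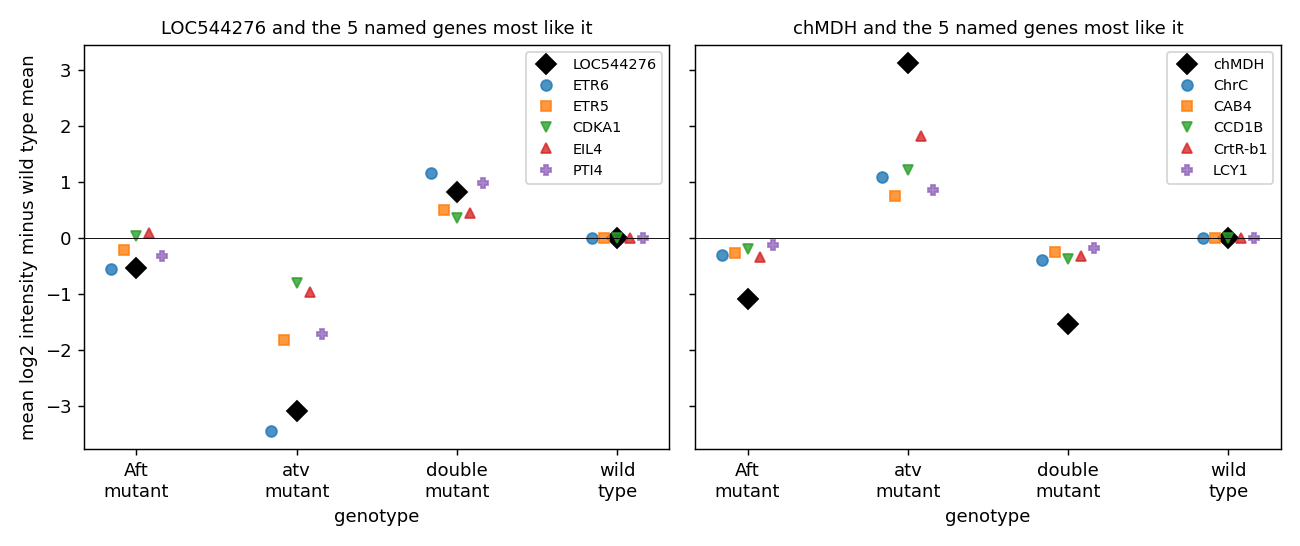
Mean log2 normalized intensity per genotype minus the wild-type mean, for LOC544276 with its nearest named genes (left) and chMDH with its nearest (right). The order is Aft, atv and double mutant and wild type. ETR6 was low in the atv mutant, as was LOC544276, and ChrC was high there, as was chMDH.

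Array-wide measures bear on the atv mutant in particular. Replicates of a genotype correlated at 0.977 to 0.988 over the 9493 probe sets that passed the filter. The mean correlation with the wild-type arrays was 0.91 and 0.898 for the atv mutant, 0.962 and 0.965 for the Aft mutant and 0.953 and 0.941 for the double mutant. Median deposited intensities ran from 514.5 to 755.4. DFR, the anthocyanin enzyme dihydroflavonol reductase, read 10.57 and 10.77 in the Aft mutant, 7.49 and 7.92 in the atv mutant, 13.3 and 13.39 in the double mutant, and 0.71 and 3.33 in wild type. The ripening polygalacturonase PG2 stayed at 0 to 3.18 on all arrays.

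Some genes listed as markers of tissues or cell types, the epidermis of the peel among them, also differed between genotypes. The 2 cuticle and epidermis markers found of 10 listed, LE16 and TSW12, summed to 4324 to 4945 in the Aft mutant, 15454 to 15930 in the atv mutant, 9040 to 9891 in the double mutant and 4191 to 4365 in wild type (normalized intensity). Most of this sum was LE16. TSW12 averaged 8.17 in the Aft mutant, 10.63 in the atv mutant, 9.69 in the double mutant and 8.73 in wild type (log2). The 3 vascular markers found of 8, TLRP, SUT2 and TPRP-F1, summed to 15969 to 16579 in the Aft mutant, 3301 to 4105 in the atv mutant, 18196 to 19294 in the double mutant and 4899 to 5163 in wild type. That sum was mostly TLRP, which averaged 13.86 in the Aft mutant, 11.43 in the atv mutant, 14.07 in the double mutant and 11.75 in wild type (log2). SUT2 averaged 10.35, 9.71 and 10.45 in the Aft, atv and double mutants and 10.36 in wild type. TPRP-F1 was lower than wild type in all 3 mutants, at 6.28, 6.16 and 6.47 in the Aft, atv and double mutants and 8.09 in wild type, so the 3 markers did not shift together. The 2 seed markers found of 8 stayed at or under 22 on every array. The part of these shifts in the values of LOC544276 and chMDH was not tested. In whole peel a change in the number of cells of a type and a change in marker RNA per cell cannot be told apart.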

How the data were processed

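RNA of peel from 8 tomato fruit samples was read on the Affymetrix Tomato Genome Array. The authors deposited 1 linear intensity per probe set, made with GCRMA per the submitters' processing notes, with no version given in the sources used here. Of 10209 probe sets, 171 controls were left out, leaving 10038. Arrays were quantile-normalized, values under 1 were then set to 1, and log2 was taken. The 9493 probe sets with a log2 of 4 or more on at least 2 arrays were tested. limma 3.58.1 in R 4.3.3 was fitted to all 8 arrays by genotype, with Benjamini-Hochberg adjustment over these probe sets and a threshold of 0.05. LOC544276 and chMDH were not tested, because they were chosen on these arrays. The members and gene lists were chosen with earlier results of these data known. The number of arrays limits the precision. Symbols come from the platform's annotation: 909 probe sets carry 1, none carries several, and 885 were matched by gene ID to the gene table of assembly SLM_r2.1. Lists were matched by symbol or synonym, 1 probe set per gene (the one with the highest mean). By hand, mMDH1, SCOA, PPCK1 and PPCK2 were added, and ambiguous symbols such as SDH, PDH and AAT were dropped. Named genes are all of the malate and glyoxylate lists, the 3 of each other list with the lowest adjusted p, and the 5 most alike by r. Other list genes named beside a small count (gts1, GABA-TP3, PSBO, CAB6A, PETE and PLDa2) were chosen after their values were seen. Samples with the same replicate number correlated by -0.04 to 0.18 in their deviations from the group means, so no pairing was used. The test was run on simulated data of the same 9493 probe sets for the atv mutant against wild type. Of 50 changed per size, 3 at a log2 of 0.5, 24 at 1, 46 at 2 and 48 at 3 were called. The simulation gave 126 calls in all, against 3829 in the measured comparison, so these shares need not hold there. Alternatives tried were the deposited scale, median scaling, no filter on low values, a floor of 16, the replicate number as a block, the atv arrays left out, and each array left out. No genome coordinate or sequence was used here.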

Additional observations from a re-analysis of the deposited data

Results flagged for a closer look

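The effect of atv on a gene was compared with and without Aft, as the double mutant minus the Aft mutant, less the atv mutant minus wild type. For LOC544276 this difference of effects was 4.46 and for chMDH -3.57 (log2). For each gene the mean shift with atv went one way in the Aft line and the other way without Aft. For both genes the difference was not tested, because the genes were chosen on these arrays.

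Of 32 listed genes tested, 13 passed limma's test of this difference, or 40.6%, against 24.2% of all probe sets. The lists were chosen with earlier results of these data known, so these shares are a description. The effect of atv, not the level of the gene, was lower with Aft than without for CAT2 at -1.87 (limma, adjusted p = 0.00051), gMDH at -1.39 (0.0064), GABA-TP2 at -1.53 (0.0031), GS2 at -1.76 (0.00059) and ARG2 at -1.92 (0.00049). It was lower too for the chloroplast genes CAB5 at -2.29 (limma, adjusted p = 0.0016), POR2 at -1.0 (0.0056), PETE at -0.83 (0.0081) and CAB4 at -0.73 (0.013). The effect of atv was higher with Aft for ME2 at 2.17 (limma, adjusted p = 0.00044), gdh1 at 1.27 (0.011), RNALE at 2.50 (0.009) and PLDa1 at 0.66 (0.039). RNALE was dim on every array and dimmest in the Aft mutant, and with intensities under 16 set to 16 its difference of effects was 1.79 (limma, adjusted p = 0.013). The calls of gdh1, RNALE and POR2 were lost on the deposited scale, that of PETE there and with arrays scaled to 1 median, that of CAB4 in 6 other settings and that of PLDa1 in 9.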

How the results depend on the processing

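The 60 calls for listed genes kept their direction in every setting, and 41 passed in all of them; 15 were lost on the deposited scale and 14 when some array was left out. On the deposited scale fewer probe sets were called: 290 in the Aft mutant, 1987 in the atv mutant and 442 in the double mutant against wild type, 76 in the double against the Aft mutant, 2252 in the double against the atv mutant, and 872 for the difference of effects. There chMDH differed by -1.23 in the Aft mutant and -1.76 in the double mutant against wild type and by -4.88 in the double against the atv mutant, and LOC544276 by 3.57 in the double against the atv mutant and by 4.18 in the difference of effects. The median of all probe sets there was -0.13, against 0.04 when normalized, for the double mutant minus wild type, and -0.13, against 0.1, for the double minus the atv mutant. A floor of 16 gave 584 calls for the double against the Aft mutant. Without both atv arrays there were 903, and 2269 for the double mutant against wild type; the cause was not tested.

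Leaving out 1 array at a time gave 205 to 562 calls for the Aft mutant, 2124 to 3825 for the atv mutant and 355 to 2211 for the double mutant against wild type, 77 to 878 for the double against the Aft mutant, 2584 to 4237 for the double against the atv mutant and 1172 to 2606 for the difference of effects. The lone array left in a genotype was assumed to vary like the other groups. Without wild-type replicate 1 or 2 the counts against wild type were 207 and 205 in the Aft mutant, 2124 and 2236 in the atv mutant, and 361 and 355 in the double mutant. chMDH ran from 2.99 to 3.29 in the atv mutant against wild type, -4.85 to -4.53 in the double against the atv mutant, and -3.74 to -3.44 in the difference of effects. LOC544276 ran from -3.47 to -2.77, 3.59 to 4.3, and 4.14 to 4.84 in the same comparisons. The replicate number as a block gave 456, 3765, 1364, 356 and 4111 calls in the order above and 2170 for the difference of effects, and lost 1 of the 60 calls, RNALE in the double mutant against wild type.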
